A study of Zea mays with 4 samples.

Results

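MADS-box genes encode transcription factors named after a conserved DNA-binding domain, and 31 of the 34018 protein-coding genes in the files (48174 GeneIDs in all) carried a name of this family. They were selected by name, as protein-coding GeneIDs whose NCBI maize symbol or synonym is mads, zmm or zag followed by a number. The choice was made with earlier results of these data known. All 31 matched through a synonym and 0 through the official symbol, so MADS-box genes without such a name are not covered. The libraries came from root tips (the last 1 mm, from primary as well as seminal roots) of seedlings of the maize inbred B73, 3 days after germination, grown without treatment in a chamber at 28 C, with dim light (near 500 lux) day and night. There was 1 group of 4 biological replicates, both root types were named for each library, and no second condition was present. The number of seedlings behind a library is not stated in the labels.

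MADS-domain proteins bind DNA as dimers and assemble into larger complexes, and combinations of them set the identity of floral organs. Genes of class B specify petal-like organs and stamens, genes of class C specify stamens and carpels, genes of class D act in ovules, and SEPALLATA-type genes supply partners that the other classes need. Other branches of the family control flowering time and the branching of the inflorescence. In Arabidopsis some members also act in the root, for example in the response of lateral roots to nitrate. No gene, transcript or protein sequence is shown, since none was used here.

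Library totals ran from 9168900 to 14728797 counts. Levels are given in CPM (counts per 1e6 counts of the library) as mean ± SD over 4 libraries. They were not divided by transcript length, for which no value was used, so an order of genes in CPM ranks reads rather than transcript molecules. The tissue label was checked against marker genes. The root cap genes RCP1 and RCP2 summed to 316 to 423 CPM per library, and the root hair gene rth3 reached 61.9 to 69.4 CPM. Of 4 genes of ear and tassel branching and meristem identity, zfl1 and ra1 had no count, ra3 had 2 counts, and ra2 alone passed the expression filter. Some genes on lists of other tissues were as high as the root markers or higher. Of 7 anther and pollen genes 1 passed the filter, exg1, at 882 ± 43.2 CPM, and the other 6 held between 0 and 44 counts over 4 libraries. Of 29 endosperm genes, mostly zeins, 25 had no count, and 3 passed, namely the starch genes sh2 and bt2 and the starch-debranching gene zpu1, with a summed level of 16.4 to 20.7 CPM for the list. In the leaf list 2 of 6 genes passed, Ppdk1 at 60.0 ± 20.6 CPM and me3 at 5.83 ± 0.447 CPM, and the Rubisco gene rbcs1/ssu1 had no count.

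Few MADS-box genes passed the expression filter in root tips, and those that did were low. At least 1 count was found for 17 of the 31 genes. Of the 31 genes, 14 had no count in any of the 4 libraries, which is 45.2% against 22.7% of all protein-coding genes. A further 11 had between 1 and 36 counts over the 4 libraries and did not pass the expression filter (edgeR's filterByExpr at its defaults), which here asks for at least 0.729 CPM in each library. The other 6, 19.4% of the family, passed, against 57.6% of all protein-coding genes. A gene with no count in 4 libraries could still have reached 0.0584 CPM, the level of 3 counts over the 4 libraries together. This limit covers counting error only, and collapsing of reads by molecular tag before counting is not stated. In these bulk samples a gene active in few cells cannot be told apart from one with little RNA in each cell.

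**Figure D1:**
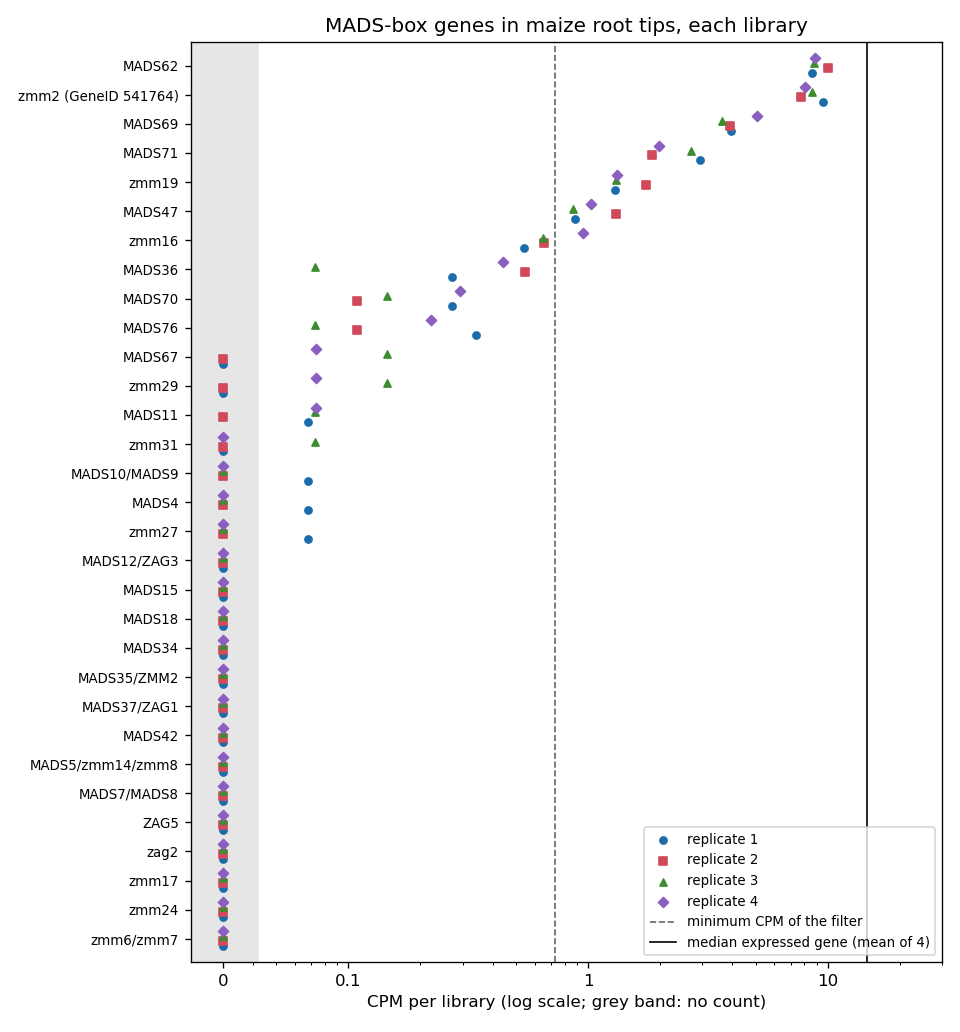
CPM of each of the 31 MADS-box genes (rows, ordered by mean level) in each of the 4 libraries (coloured points), on a log axis with genes without a count in the grey band. The 6 genes to the right of the dashed filter line reach at most 10.03 CPM in a library, left of the solid line that marks the median expressed protein-coding gene.

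Taken as a family, the 31 genes held 1447 counts. Replicates 1, 2, 3 and 4 contributed 426, 257, 376 and 388 of them, which is 28.9, 28.0, 27.2 and 28.5 CPM. The family sum was thus 28.2 ± 0.727 CPM (SD, n = 4), nearly the same in each library. The pair of highest genes, MADS62 and the zmm2 gene with GeneID 541764, held 62.4 ± 1.96% of this sum, and the 6 genes that passed the filter held 94.1% of the 1447 counts.

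MADS62 (GeneID 100194048) had the highest level of the family. It had 127, 92, 121 and 121 counts in replicates 1 to 4, which is 8.62, 10.03, 8.76 and 8.88 CPM. The 4 libraries lay close together, with the shallowest, replicate 2, at the top. Its mean was 9.07 ± 0.648 CPM, a log2 ratio of -0.70 ± 0.16 to the median expressed protein-coding gene of the same library. Some of its deposited values were fractional, such as 126.5 in replicate 1; the sources do not say how these arose.

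The gene listed as zmm2 with GeneID 541764 came next. It had 141, 71, 119 and 110 counts in replicates 1 to 4, or 9.57, 7.74, 8.62 and 8.08 CPM. Its values overlapped those of MADS62, and replicate 1 was the highest. The mean was 8.50 ± 0.799 CPM and the log2 ratio -0.78 ± 0.13. The name zmm2 belongs to a gene of class C, the carpel and stamen class, but in the NCBI table it stands at 2 GeneIDs. The other one, MADS35/ZMM2 (GeneID 100037764), also carries the synonym AGAMOUS, the name of the class C gene of Arabidopsis, and it had no count in any of the 4 libraries. The class of GeneID 541764 therefore rests on a synonym that it shares.

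MADS69 (GeneID 100272251), a regulator of flowering time in maize, was the next in level. It had 58, 36, 50 and 69 counts in replicates 1 to 4, which is 3.94, 3.93, 3.62 and 5.07 CPM. Replicate 4 was the highest and the other 3 lay within a narrow range. Its mean level was 4.14 ± 0.636 CPM, with a log2 ratio of -1.82 ± 0.16.

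MADS71 (GeneID 100273746) had 43, 17, 37 and 27 counts in replicates 1 to 4, or 2.92, 1.85, 2.68 and 1.98 CPM. Replicates 1 and 3 were high, and replicates 2 and 4 were low. The mean was 2.36 ± 0.521 CPM and the log2 ratio -2.61 ± 0.31. This gene is uncertain as a single gene. In the NCBI table it overlaps LOC100193134, both carry the synonym GRMZM2G110582, and both had fractional values. LOC100193134 had 134, 80, 112 and 94 counts in replicates 1 to 4, and MADS71 held 22.2 ± 3.32% of the counts of the pair (SD, n = 4).

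The last of the 6 were zmm19 and MADS47, each below 2 CPM in all 4 libraries. zmm19 (GeneID 542033), listed also as tunicate1, belongs to the SVP branch of the family, and its misexpression in the ear gives pod corn, in which leaf-like glumes cover the kernels. It had 19, 16, 18 and 18 counts in replicates 1 to 4. The nearly equal counts became 1.29, 1.75, 1.30 and 1.32 CPM, because replicate 2 had the smallest total, and the mean was 1.41 ± 0.220 CPM with a log2 ratio of -3.39 ± 0.27. MADS47 (GeneID 100282117) had 13, 12, 12 and 14 counts, or 0.883, 1.31, 0.869 and 1.03 CPM. Its mean was 1.02 ± 0.204 CPM and its log2 ratio -3.87 ± 0.31. Both genes were highest in replicate 2, the shallowest library, and the part of depth in this was not tested. The name MADS47 is also that of a partner of Opaque2 in the activation of zein genes in maize endosperm. Whether GeneID 100282117 is that gene was not checked. The Opaque2 gene, o2, had no count in these libraries.

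Set against the median expressed protein-coding gene, which stood at 13.9 to 15.5 CPM, none of the 6 genes lay higher. The comparison asks where each gene falls among the genes of its own library, since a single group offers no contrast between conditions. edgeR's quasi-likelihood test with an intercept alone covered all 21046 expressed genes, with departures of more than 2-fold to either side as the alternative and Benjamini-Hochberg adjustment at 0.05. Of the 6 tested MADS-box genes 0 lay above, where 26.6% of the expressed protein-coding genes did, and 4 lay below, where 25.1% did. All 6 ratios were negative with edgeR, DESeq2 and limma, so the count above was 0 at any p cutoff, adjusted or not. MADS69 was lower than the median gene 3.54-fold (edgeR, adjusted p = 3.17e-05), MADS71 6.11-fold (1.88e-07), zmm19 10.5-fold (2.99e-09) and MADS47 14.6-fold (7.58e-10), each in 4 of 4 libraries. MADS62 and zmm2 (GeneID 541764) were 1.62-fold and 1.72-fold lower in counts and did not pass, both with an adjusted p of 1.0.

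The median log2 ratio of the 6 genes was -2.23 ± 0.10, beside 0.00 for the expressed protein-coding genes, a value that the choice of scale fixes. With every gene that had a count and hence a lower median gene, MADS62 and zmm2 lay slightly on the other side, at 0.17 and 0.08, and MADS69 lost its call, at -0.96.

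**Figure D2:**
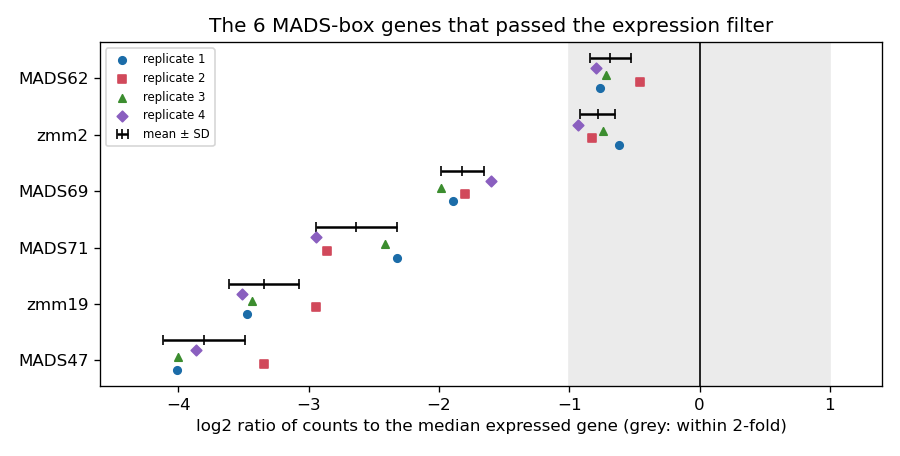
Log2 ratio of counts to the median expressed protein-coding gene for the 6 MADS-box genes that passed the filter, with 4 libraries as points and mean ± SD above them. MADS62 and zmm2 sit inside the grey 2-fold band, and MADS69, MADS71, zmm19 and MADS47 sit to its left in each library.

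In the order of CPM, 3 of the 5 steps between neighbours separated genes whose 4 libraries did not overlap. These were zmm2 over MADS69, by 1.04 ± 0.28 log2 units, MADS69 over MADS71, by 0.81 ± 0.46, and MADS71 over zmm19, by 0.71 ± 0.49. The last gap was narrow, since in replicate 2 MADS71 had 17 counts (deposited as 16.5) and zmm19 had 16. MADS62 and zmm2 overlapped, with a difference of 0.10 ± 0.22 and MADS62 higher in 3 of 4 libraries. zmm19 and MADS47 overlapped in CPM across libraries, although zmm19 was higher in 4 of 4, by 0.46 ± 0.10. The exact sign-flip permutation test (two-sided, 5 pairs) gave p = 0.125 for each pair other than the first (adjusted 0.156), the smallest p that 4 libraries allow, and p = 0.5 for MADS62 and zmm2 (adjusted 0.5). No step could thus pass 0.05 in this design.

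Genes of the flower and inflorescence branches made up 12 of the 14 members without a count. Of the 31 genes, 20 could be placed in a branch by name, reading a synonym such as m15 as zmm15. Such a synonym alone placed MADS7/MADS8, MADS18, MADS15 and MADS67, of which only MADS67 had counts. Of the 20 genes, 19 belong to branches other than SVP, namely the AP1/FUL, AGL6, SEPALLATA-type, class B, C and D and B-sister genes. Of these 19 genes 1 passed the filter, GeneID 541764 with 441 counts, and the SVP gene zmm19 passed as well. Leaving aside GeneID 541764, whose class rests on a shared synonym, 18 such genes remained. Of these 18, 12 had no count and 0 passed the filter, and together they held 47 counts. The class C genes MADS37/ZAG1 and MADS35/ZMM2, the class D gene zag2, both AGL6-type genes, MADS12/ZAG3 (bearded-ear1) and ZAG5, and the B-sister gene zmm17 were among those without a count. Of 6 SEPALLATA-type genes, which supply partners in floral complexes, zmm6/zmm7, zmm24, MADS5/zmm14/zmm8 and MADS7/MADS8 had no count. The SEPALLATA-type genes zmm27 and zmm31 had 1 count each. MADS7/MADS8 was kept here, although M14, the synonym that placed it, is shared with MADS5/zmm14/zmm8. Of the AP1/FUL-type genes, which act in the switch of the shoot tip to flowering, MADS15 had no count and MADS67 had 3.

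The highest of these 18 genes was zmm16 (GeneID 542019), a class B gene of the PISTILLATA type known as sterile tassel silky ear1. It had 8, 6, 9 and 13 counts in replicates 1 to 4, which is 0.543, 0.654, 0.652 and 0.954 CPM. Only replicate 4 exceeded the filter's 0.729 CPM, and the mean was 0.701 ± 0.177 CPM. Its counts were low but present in 4 of 4 libraries. The other PISTILLATA-type genes, zmm29 and MADS18, had 3 and 0 counts, and MADS11 (Silky1), the class B gene of the APETALA3 type, had 3. Without zmm16, the remaining 17 floral class genes held 11 counts in all.

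In the order of protein-coding genes of the NCBI table, floral genes stood next to each other in 2 places. zmm31 neighbours MADS15, and zmm29 neighbours MADS18, with 1, 0, 3 and 0 counts. MADS18 overlaps LOC100281715, which had 423 counts, and genes that overlap are uncertain in these counts.

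Of the 11 members that no branch list names, 4 passed the filter, MADS62, MADS69, MADS71 and MADS47, and 2 had no count, MADS34 and MADS42. The 11 held 888 of the 1447 counts. MADS36, MADS70 and MADS76 had 16, 11 and 10 counts, each with at least 1 count in 4 of 4 libraries, and MADS4 and MADS10/MADS9 had 1 count each. At such counts a difference between libraries was not detectable.

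The spread between replicates was close to what counting alone gives. Of the 10 genes with a count in each library, 6 had a smaller coefficient of variation (CV, the SD as a percentage of the mean) than the one computed from Poisson counting error, and 4 had a larger one. For MADS62 the CV was 7.14%, against 9.49% from counting, and for zmm2 (GeneID 541764) it was 9.40%, against 9.68%. MADS71 had the largest spread of the 6 that passed, 22.1% against 18.2%. Biological differences between replicates smaller than these counting errors could not be seen at this depth.

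**Figure D3:**
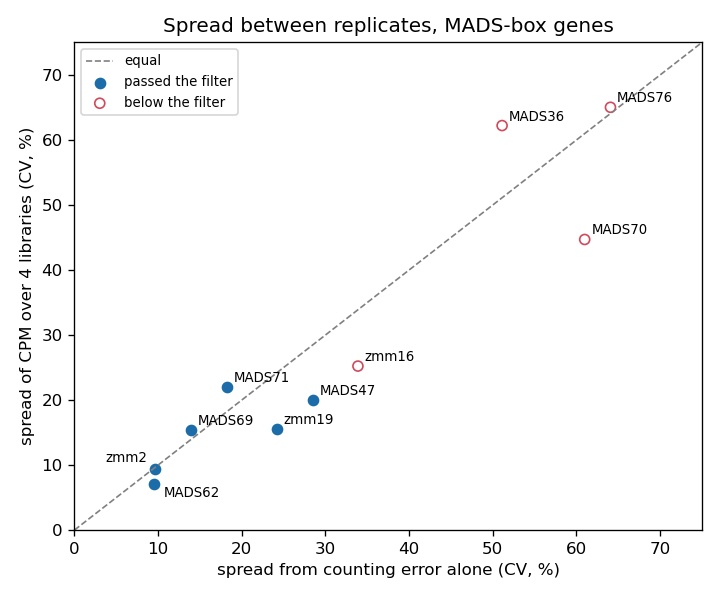
CV of CPM over 4 libraries against the CV from counting error alone for the 10 MADS-box genes with a count in each library, as filled points for genes that passed the filter and open points for those below it. The points follow the dashed line of equality, from MADS62 at 7.14% to MADS76 at 65.0%.

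Other families of transcription factors, selected by name in the same way, had larger shares of expressed genes. The filter was passed by 6 of 31 MADS-box genes (19.4%), 28 of 46 bHLH genes (60.9%), 25 of 33 bZIP genes (75.8%) and 21 of 61 MYB genes (34.4%). No count was found for 45.2% of MADS-box, 15.2% of bHLH, 12.1% of bZIP and 29.5% of MYB genes. The highest MADS-box gene stood at 9.07 CPM, the highest bHLH gene at 74.0, the highest bZIP gene at 189 and the highest MYB gene at 132 CPM. Of the genes that passed, 0 of 6 MADS-box, 1 of 28 bHLH, 4 of 25 bZIP and 1 of 21 MYB genes lay above the median gene. Each of these shares was smaller than the 26.6% of all expressed protein-coding genes. Calls below it numbered 4 of 6 (66.7%), 13 of 28 (46.4%), 8 of 25 (32%) and 7 of 21 (33.3%) in the same order. The share of all expressed protein-coding genes below was 25.1%. The MADS-box share below was thus the largest of the 4 families, although it rests on 6 genes. These differences between families were not tested.

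**Figure D4:**
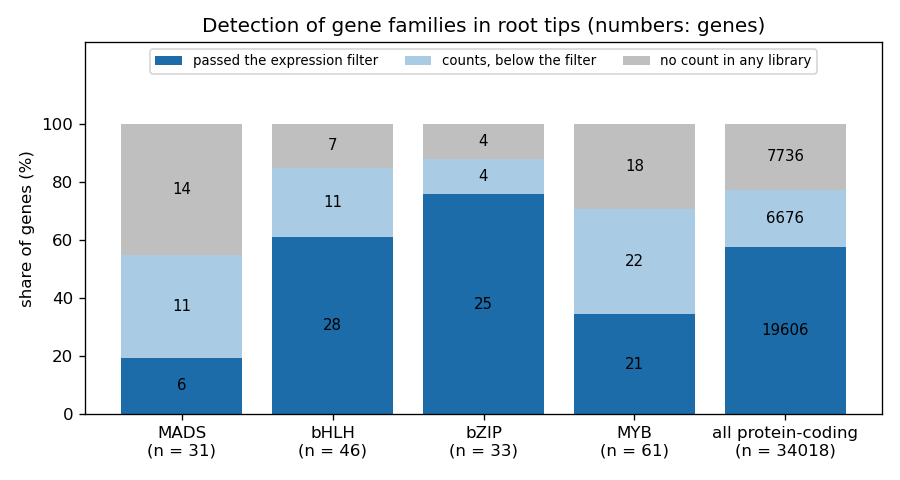
Share of genes in 5 sets that passed the expression filter, had counts below it or had no count in any library (stacked bars, numbers of genes printed inside). The MADS-box bar has the smallest passing part, 6 of 31 genes, and the largest part without a count, 14 of 31.

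A list of 43 genes outside the family rule, chosen by name for flowering, inflorescence or shoot development, was also described. Whether these 43 genes act with MADS-box genes was not tested. Of these, 22 had no count, 8 had counts below the filter and 13 passed, with 1 above the median gene, 5 below and 7 neither. The share without a count was 51.2%, against 22.7% of all protein-coding genes, and the share that passed was 30.2%, against 57.6%. Among those that passed, 7.69% lay above and 38.5% below the median gene, against 26.6% and 25.1% of all expressed protein-coding genes, differences that were not tested. The MADS-box gene zap1, an AP1-type gene outside the naming rule, had no count. Of 18 genes with a ZCN name, 15 had none, ZCN8 among them, and ZCN11 led with 24 counts. Replicate 3 held 15 of these, where replicates 1, 2 and 4 had 5, 2 and 2, and the mean of ZCN11 was 0.448 CPM with all 4 libraries and 0.235 CPM without replicate 3. ids1 (indeterminate spikelet1), an AP2-type gene that limits the number of florets, had 741, 449, 766 and 679 counts in replicates 1 to 4. It was similar in all 4 libraries, at 51.1 ± 2.93 CPM, and was the gene above the median gene (log2 ratio 1.80 ± 0.10, edgeR, adjusted p = 7.04e-08). Next were ts1, a lipoxygenase gene of jasmonate synthesis, at 29.7 ± 1.98 CPM, the ids1 relative sid1 at 19.6 ± 1.45 CPM and fea2, a receptor-like gene of meristem size control, at 11.9 ± 1.29 CPM. None of these 3 passed the test.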

How the data were processed

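Per the labels' protocols, directional libraries with molecular tags were prepared from rRNA-depleted total RNA. The deposited values are unnormalized estimated counts per NCBI GeneID. The submitters' processing notes name HTSeq, STAR 2.7.10b, Trimmomatic (0.36 and 0.39), UMI-tools, SAMtools and deepTools; build, annotation, strand setting and tag collapsing are not given there. Counts were rounded, since 3062 of 48174 genes had a fractional value (tolerance 1e-06). A series table with 5 columns matching no sample was not used. Names came from the NCBI RefSeq table of Zm-B73-REFERENCE-NAM-5.0, in which 48127 GeneIDs were found.

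The filter was filterByExpr (minimum count 10, total 15). An intercept-only edgeR 4.0.16 quasi-likelihood model (R 4.3.3) took each library's median expressed protein-coding gene as its offset. The F statistic compared the deviances of the fit and of the closer 2-fold limit. The planned correction for coding length needed lengths that were not used here, so the uncorrected fit became the main one. On simulated counts for this comparison (21046 genes), 40 of 40 genes at 4-fold were called, and 3 of 8103 inside 2-fold were called wrongly. Log2 ratios per library used a pseudocount of 0.5. The edgeR p-values set each gene's departure beyond 2-fold from the median gene against the variation between 4 biological replicates, counting error included. They take the median gene as fixed. The rule named each member that passed the filter, members near it, and listed genes above the median gene or highest without a call. Members and lists were chosen with earlier results of these data known. Alternatives used DESeq2 1.42.0, limma 3.58.1, TMM scaling, other filters and omitted replicates.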

Additional observations from a re-analysis of the deposited data

Results flagged for a closer look

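One value stood apart from its group. Among the 4 libraries, zmm19 was higher in replicate 2, at 1.75 CPM, than in the others, at 1.29 to 1.32 CPM, and the gap took 0.931 of the whole range. Its counts there were 16, against 18 to 19 in the other libraries, and replicate 2 is the shallowest library. The spread of zmm19 over the 4 libraries, 15.6%, was below the 24.2% that counting error gives. Of 24 values examined in this way 1 stood apart, and chance flags about 1 in 20.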

How the results depend on the processing

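The calls of MADS69, MADS71, zmm19 and MADS47 below the median gene were recomputed under 11 alternatives, and 42 of 43 values kept the direction and the call. The exception was MADS69 without a filter (log2 ratio -0.96). The number of MADS-box genes called above the median gene was 0 under each of these alternatives, although without a filter MADS62 and zmm2 had ratios slightly above it (0.17 and 0.08), not called. Without a filter 14 genes lay below and the median log2 ratio was -5.10, since 17 genes with at least 1 count entered. The share of all genes called below in this setting was not computed, and 6676 protein-coding genes with counts below the filter entered as well. At least 1 count was found for 54.8% of MADS-box, 84.8% of bHLH, 87.9% of bZIP and 70.5% of MYB genes. Of all protein-coding genes, 22.7% had no count. Leaving out genes with fractional values, which drops MADS62 and MADS71, gave a median of -2.54 and a family sum of 16.7 CPM; for the sum, this alternative was chosen after seeing the data. The sum was 30.2 per 1e6 protein-coding counts and 19.1 CPM without MADS62. Without a fold threshold 6 genes lay below, MADS62 and zmm2 included. The share of all genes called below in this setting was not computed. The scale is centred on the median gene, with 9822 of 19606 expressed protein-coding genes at a ratio above 0 in the main fit. Calls in this setting therefore do not set MADS62 and zmm2 apart. Leaving out 1 replicate in turn gave 4 genes below and 6 passing each time, a median log2 ratio of -2.27 to -2.16 and a sum of 27.9 to 28.5 CPM. Corrections by coding or gene length were not run. No paired analysis was possible because there is a single group. Members under about 10 counts per library are limited by depth.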

Other observations

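Some maize genes carry a synonym of the form m and a number without a mads, zmm or zag name, and they were noticed after the values were seen. Among the 31 MADS-box genes, 15 have such a synonym, and in 10 of them it stands beside the zmm name of the same number. Outside the family rule m20 (GeneID 542034) had 62, 48, 52 and 60 counts in replicates 1 to 4, or 4.40 ± 0.616 CPM, and lay below the median gene (log2 ratio -1.75 ± 0.24, edgeR, adjusted p = 0.000113). That level lies beside the 4.14 ± 0.636 CPM of MADS69. The gene listed as both m5 and SOC1, the name of an Arabidopsis flowering-time gene, had 12 counts over 4 libraries. m21, m4 and m26 had 7, 4 and 2 counts, and m1 and m25 had none. The form is no proof of family membership, since M2 (GeneID 100126801), at 138 ± 12.8 CPM, is also listed as myosin2.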
